A study of Capra hircus with 6 samples.

Results

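The mRNA table of this study of goat hypothalamus listed 30679 transcripts, and 248 of them were RefSeq coding transcripts of at most 300 nt. They were chosen by their length alone, together with an accession that starts with XM_ (a predicted transcript, 244 of them) or NM_ (a curated transcript, 4 of them), and they belonged to 247 genes. Hypothalamus of 3 pubertal and 3 prepubertal female Anhuai goats was sequenced after removal of ribosomal RNA, with paired-end reads and a separate strand-specific library for each animal. Pubertal goats were 4.5 to 5 months old and in the late follicular phase, prepubertal goats were 2.5 to 3 months old, and both groups were kept on the same farm. The study compared the stages to look for transcripts that accompany the onset of puberty. The members had a median length of 248 nt and a range from 93 to 300 nt.

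A mature mRNA holds a coding region between a pair of untranslated ends, so a complete mRNA as short as these members is rare and usually encodes a very small protein, such as a ribosomal protein, a small subunit of the respiratory chain or a peptide hormone precursor. A shorter record in a predicted gene set is often only a piece of a gene. FPKM, the unit of the table, is the number of sequenced fragments scaled to the length of the transcript and to the number of fragments in the library. Cufflinks divides by the part of a transcript on which a fragment can start, and this part shrinks quickly once a transcript is no longer than the fragments themselves.

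Among the 248 members, 242 (97.6%) were the sole transcript of their gene in the table. This was so for 88.6% of the coding transcripts of over 300 and up to 500 nt, 77.6% of those of over 500 and up to 1000 nt and 46.7% of those over 1000 nt. The gene identifier of 136 members (54.8%) was found in the RefSeq gene table of the goat assembly ARS1.2, against 80.1%, 91.1% and 97.5% of the 3 longer classes. Of these 136, 89 had a gene symbol of their own, 47 had a LOC symbol and 9 were pseudogenes there. Only 39 members (15.7%) kept their own accession in that table, against 35.6%, 54.2% and 43.8% of the longer classes. The members without a match are called here by their gene number.

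The tissue label was set beside markers. Of 16 hypothalamic peptide genes on the marker list, 13 matched a row, while OXT, TRH and HCRT did not. Of the 13 that matched, 12 reached a mean of 1 FPKM or more, and AVP was listed at 0 in every library. Their summed level was 1397 to 2523 FPKM in the pubertal and 1681 to 2589 FPKM in the prepubertal libraries. Pituitary hormone genes summed to 52.8 to 66.0 FPKM in the pubertal and 3.67 to 20.9 FPKM in the prepubertal libraries. Of 6 on the list, 5 matched a row and 3 of these reached 1 FPKM or more, while PRL matched none. The pituitary sums moved with the stage, and their part in any stage difference below was not tested.

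The members took a very large share of the expression values of the table. When FPKM was summed over the table, they held 50.8%, 35.6% and 44.0% in pubertal replicates 1, 2 and 3, and 60.1%, 32.2% and 44.9% in prepubertal replicates 1, 2 and 3. The share was 43.5% ± 7.59 (SD, n = 3) in the pubertal and 45.7% ± 14.0 (SD, n = 3) in the prepubertal libraries, and the libraries of both stages overlapped. Members under 200 nt alone held 29.2% to 58.1% of the sum, and members of 200 to 300 nt held 1.96% to 2.99%. Coding transcripts over 1000 nt, 24863 in number, held 24.3% to 42.5%.

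Most of this share came from 1 row, the 150 nt transcript XM_013977338.1 of NKD2, which encodes an inhibitor of Wnt signalling that binds Dishevelled. Pubertal replicates 1, 2 and 3 listed it at 466078, 233726 and 331051 FPKM, and prepubertal replicates 1, 2 and 3 listed it at 762803, 174180 and 357218 FPKM. It was the highest row of the table by mean, and no other row carried the symbol NKD2. The highest and the lowest of the 6 values were both prepubertal, so the stages overlapped completely. NKD2 alone made up 39.4%, 28.1% and 35.2% of the pubertal sums and 52.7%, 21.4% and 35.0% of the prepubertal sums. In limma on log2(FPKM + 1) its difference, pubertal minus prepubertal, was -0.13 (SE 3.40, adjusted p = 0.999), and the sign turned to 0.12 without pubertal replicate 2 and to 0.41 without prepubertal replicate 1. The SE depended on the trend that limma fits between level and variance: it was 0.54 without the trend, 0.53 on the fragment scale introduced below, 0.82 with a minimum mean of 1 FPKM and 76.4 with no minimum. The adjusted p-value was 0.970 or higher in all of these settings and with any library left out.

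The members also set most of how far the totals of the libraries differed, and NKD2 was lowest and highest in the same libraries as the sum. The sum of FPKM over the rows ran from 813233 in prepubertal replicate 2 to 1448560 in prepubertal replicate 1. Without all members, and not NKD2 alone, the sums lay between 527382 and 582453. The other 247 members together held 7.41% to 11.4% of the sums, and 9 of them, those next in mean FPKM, held 6.04% to 9.36%.

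**Figure D1:**
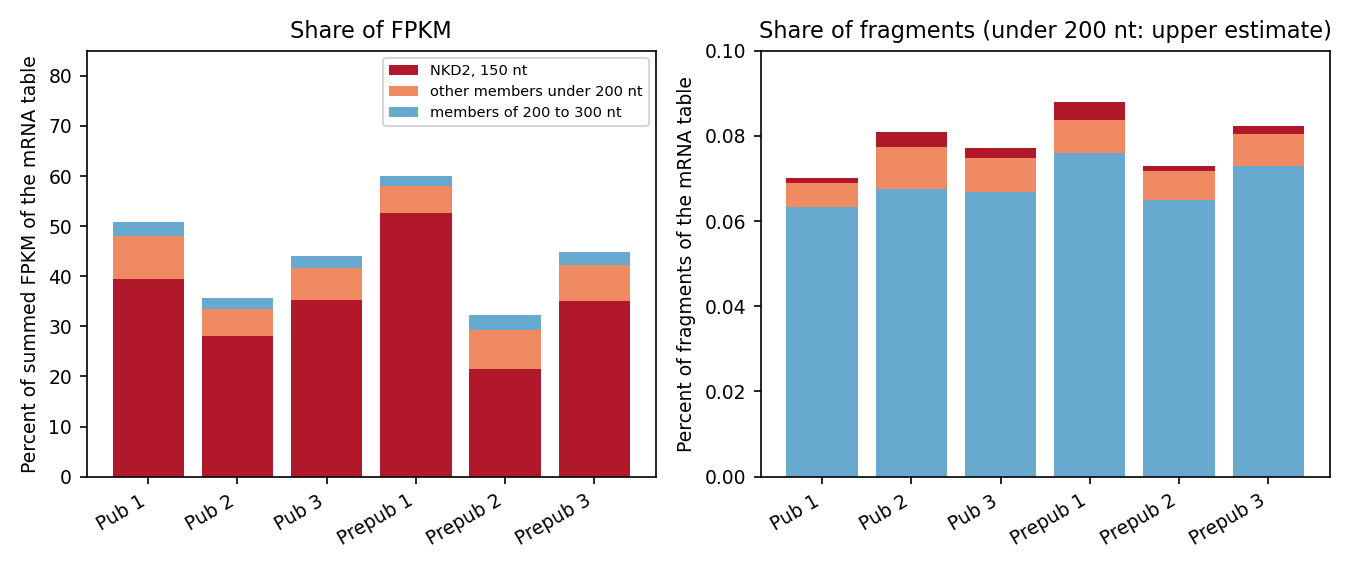
Percent of all FPKM in the mRNA table (left) and of the fragments behind these values (right) held by the coding transcripts of at most 300 nt, for each of the 6 libraries (Pub, pubertal, and Prepub, prepubertal). Bars are stacked by NKD2, other members under 200 nt and members of 200 to 300 nt, and reach 32.2% to 60.1% on the left but 0.0702% to 0.0880% on the right.

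The fragments behind the values could be read from the values themselves. If a value is a whole number of fragments, 2 transcripts of equal length in 1 library should have FPKM values in a ratio of whole numbers. Among rows of at most 300 nt that are the sole transcript of their gene, 2106 of 2298 such pairs (91.6%) had a ratio of whole numbers with a denominator of at most 20, within a tolerance of 1.5e-05. Pairs of transcripts 1 nt apart in length had one in 26 of 4700 cases (0.553%). The FPKM that 1 fragment is worth could therefore be read at most lengths from 200 nt up. From 187 to 300 nt it was read at 83 to 91 of the 92 to 98 lengths with a value per library. At the other lengths it was predicted from longer ones. For the 198 members of 200 to 300 nt, 636 of 639 values up to 100 fragments (99.5%) came out whole within 0.05 of a fragment. The worth at a length was mostly set on the values of that length, so the last share is not independent of it.

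One fragment was worth more FPKM the shorter the transcript. At 1000 nt, pubertal replicates 1, 2 and 3 gave 0.0599, 0.0571 and 0.0760 FPKM. At 300 nt the same 3 libraries gave 0.941, 0.618 and 0.920 FPKM, at 250 nt 2.90, 1.50 and 2.43 FPKM, and at 200 nt 25.3, 9.24 and 17.1 FPKM. The prepubertal libraries gave 0.891, 0.760 and 0.725 FPKM at 300 nt and 18.6, 14.8 and 14.8 FPKM at 200 nt. A single fragment on a transcript of 200 nt thus counted for far more FPKM than one on a longer transcript, and the libraries drew apart toward the short end. The ratio of pubertal replicate 1 to pubertal replicate 2 was 1.05 at 1000 nt, 1.14 at 500 nt, 1.52 at 300 nt, 1.93 at 250 nt and 2.74 at 200 nt.

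**Figure D2:**
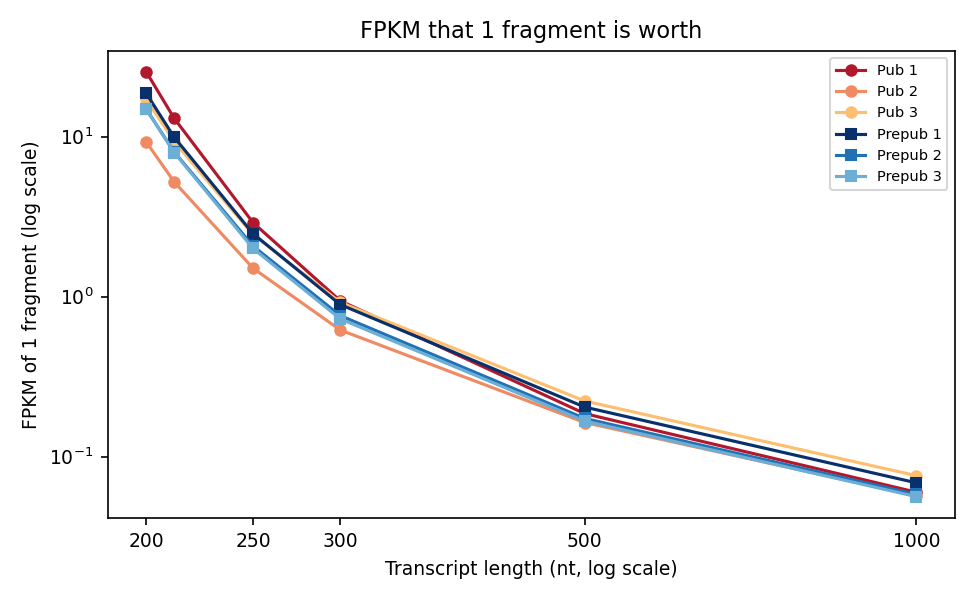
FPKM that 1 fragment is worth (log scale) against transcript length in nt (log scale) in the 6 libraries, at 200, 212, 250, 300, 500 and 1000 nt, with points joined by lines. At 200 nt the libraries lie between 9.24 (pubertal replicate 2) and 25.3 FPKM (pubertal replicate 1), and at 1000 nt all 6 lie close together.

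For long transcripts a straight line in length was fitted to the inverse of the lowest value at each length. The line with the most lengths on it was taken, and 121 to 136 of 1419 to 1425 lengths per library lay on it. It gave about 17319400 to 23585600 fragments as the divisor of the libraries and a length of 232 to 262 nt that was taken off each transcript. Pubertal replicate 1 had the longest such offset and pubertal replicate 2 the shortest. Summed over all rows of the mRNA table, the values stood for about 15997600 to 22585500 fragments. Members of 200 to 300 nt held 0.0634% to 0.0760% of these fragments. Under 200 nt the worth of a fragment was mostly extended from longer lengths and not read from the values, so fragment numbers there are upper estimates. The same extension, made from 237 nt up and read at 200 nt, differed from the measured worth by -11.5% to -13.7% in the 6 libraries.

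On that scale the NKD2 transcript was a modest row. It stood for at most 282, 766 and 388 fragments in pubertal replicates 1, 2 and 3 and at most 813, 243 and 440 fragments in prepubertal replicates 1, 2 and 3. This was at most 0.00110% to 0.00435% of the fragments of the table, against 21.4% to 52.7% of its FPKM. Because the bound differs by library, these numbers give no order of the libraries. A fragment was worth at least 305 to 1651 FPKM at 150 nt. All members together held at most 0.0702% to 0.0880% of the fragments.

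Zeros were frequent among the members. At 0 in all 6 libraries were 92 members (37.1%), 118 (47.6%) were above 0 in all 6, and 38 were at 0 in 1 to 5 libraries. Per library 109 to 116 members were at 0, which was 44.0% to 46.8% of them, against 34.2% to 37.8% of the transcripts of over 300 and up to 500 nt, 39.3% to 42.8% of those of over 500 and up to 1000 nt and 13.3% to 14.4% of those over 1000 nt. The stages were alike, with 44.9% ± 0.931 (SD, n = 3) in the pubertal and 45.4% ± 1.42 (SD, n = 3) in the prepubertal libraries. A listed 0 was not read as absence of the gene's mRNA.

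Zeros and values changed with length. All 16 members of 93 to 149 nt were at 0 in every library. Of 34 members of 150 to 199 nt, 17 were at 0 in all 6, and the other 17 had a median of 963 FPKM. Members of 200 to 249 nt had 24 of 80 at 0 and a median of 80.5 FPKM above 0, and those of 250 to 300 nt had 35 of 118 at 0 and a median of 12.1 FPKM. Zeros and the highest values thus stood side by side at 150 to 199 nt, and above 0 the median fell with length. At the upper limit itself, 5 of 9 coding transcripts of 297 to 300 nt were at 0 in all 6 libraries and the others had means of 0.165 to 12.1 FPKM, while none of the 4 just above the limit, of up to 304 nt, was at 0 in all, with means of 0.00558 to 83.9 FPKM.

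**Figure D3:**
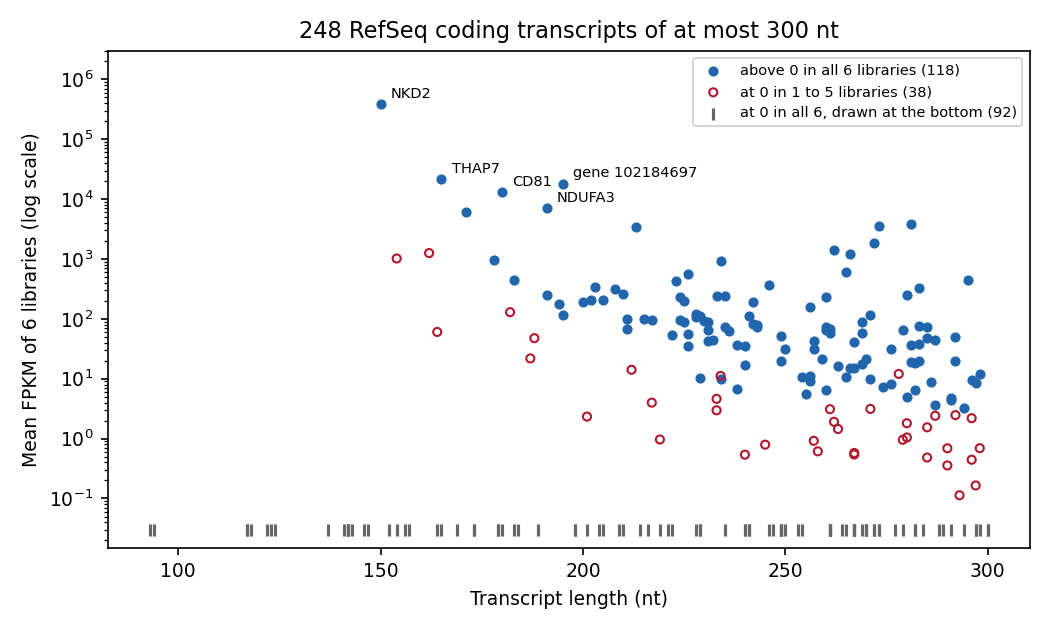
Mean FPKM over 6 libraries (log scale) against transcript length in nt for the 248 members. Filled points (118) were above 0 in all libraries, open points (38) were at 0 in 1 to 5 libraries, and ticks at the bottom (92) were at 0 in all 6. No member under 150 nt has a value above 0, and the highest points lie between 150 and 200 nt.

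The members made up 14 of the 71 rows of the table that averaged 1000 FPKM or more and 4 of the 5 rows at 10000 FPKM or more. In fragments most were small. Of 729 values above 0 for members of 200 to 300 nt, the median was 17 fragments, 118 values (16.2%) stood for 3 fragments or fewer, and 46 for a single one. In 23 members no library exceeded 3 fragments, and 63 members had at least 10 in all 6 libraries. Counting error is therefore large for many of them.

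Several of the most abundant members belong to genes for small proteins of the housekeeping kind. Whether a member holds the whole coding region of its gene was not tested. RPL36, a protein of the large ribosomal subunit with a transcript of 281 nt (XM_013965249.1), was listed at 5378, 2536 and 3371 FPKM in the pubertal and 4015, 3576 and 3988 FPKM in the prepubertal libraries. These values stood for 2711 to 4025 fragments, the most of any member of 200 nt or longer. ATP5I, subunit e of the ATP synthase (273 nt, XM_013964884.1), was at 3874, 2427 and 2434 FPKM in the pubertal and 4568, 3364 and 4533 FPKM in the prepubertal libraries. Its pubertal and prepubertal values overlapped. ATPIF1, which inhibits the ATP synthase when the proton gradient fails (272 nt, XM_013973877.1), was at 2805, 936 and 1508 FPKM in the pubertal and 2457, 2088 and 1163 FPKM in the prepubertal libraries.

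NDUFA3 and NDUFB1 are accessory subunits of respiratory complex I. NDUFB1 (262 nt, XM_013973212.1) was at 1988, 858 and 1032 FPKM in the pubertal and 1579, 1421 and 1636 FPKM in the prepubertal libraries, from 568 to 1110 fragments. NDUFA3 (191 nt, XM_005692999.2) was at 10789, 3868 and 5615 FPKM in the pubertal and 7503, 5254 and 8887 FPKM in the prepubertal libraries. In both, pubertal replicate 1 was the highest and pubertal replicate 2 the lowest of all 6 libraries. MRPL23, a protein of the mitochondrial ribosome (280 nt, XM_013976088.1), was lower, at 205 to 319 FPKM over the 6 libraries.

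The other abundant members were of mixed kinds. THAP7, a chromatin-bound repressor with a zinc-binding THAP domain (165 nt, XM_013977118.1), was at 32494, 8853 and 16851 FPKM in the pubertal and 27258, 18363 and 26697 FPKM in the prepubertal libraries. As fragments, its pubertal values were at most 87.2, 99.8 and 80.1 and its prepubertal values at most 117, 102 and 138. These bounds lie closer together than the FPKM values, but the fragments themselves were not read at this length. CD81, a tetraspanin of the cell surface (180 nt, NM_001285676.1), was at 17312, 11131 and 12115 FPKM in the pubertal and 13436, 12805 and 12004 FPKM in the prepubertal libraries.

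Genes 102184697 (195 nt), 102168534 (171 nt) and 102175471 (213 nt), which matched no entry of the gene table, completed the 10 highest, with means of 18105, 6054 and 3398 FPKM. None of the 10 members with the highest means passed an adjusted p-value of 0.05 between the stages in limma, where their adjusted p-values ran from 0.972 to 0.999. Of these 10, 6 were shorter than 200 nt.

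**Figure D4:**
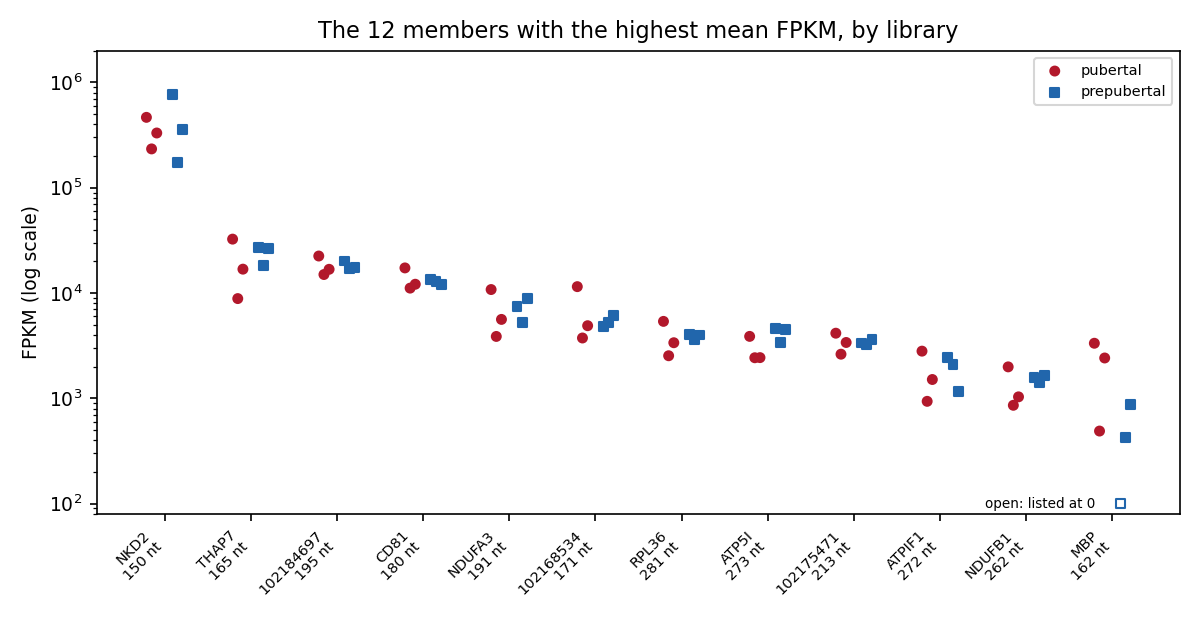
FPKM (log scale) in each of the 3 pubertal (circles) and 3 prepubertal (squares) libraries for the 12 members with the highest mean, in order of the mean, with the length under each name. Genes without a symbol are shown by their number, and an open symbol at the bottom marks a value of 0 (MBP in prepubertal replicate 1). The stages overlap in all 12.

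Few members carried the symbol of a neuropeptide or hormone. HAMP (hepcidin, the iron hormone), GAST (gastrin) and TAC4 (a tachykinin precursor) were the 3 members on the list of secreted peptides and hormones. All 3 were at 0 in every library, as were 37.1% of all members. Chosen after values were seen, NPPC (C-type natriuretic peptide, 141 nt) and PRLH (prolactin-releasing peptide, 297 nt) were also at 0 throughout. NPPC was among the 16 members of 93 to 149 nt, all at 0, so its 0 says nothing about peptide genes. TH, the rate-limiting enzyme of catecholamine synthesis (287 nt, XM_013977211.1) and likewise named after its values were seen, was at 38.0, 53.4 and 53.9 FPKM in the pubertal and 38.4, 52.3 and 32.1 FPKM in the prepubertal libraries. The values of TH stood for 32 to 72 fragments, and its stages overlapped.

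Other groups were small. TMEM121, which encodes a membrane protein (235 nt), was at 40.6 to 87.5 FPKM, and TMEM160 (142 nt) was at 0 in all libraries. ZNF74 (261 nt) was at 26.0 to 89.4 FPKM and ZNF581 (266 nt) at 4.99 to 21.5 FPKM. Of 47 members with a LOC symbol, 22 were at 0 in all 6 libraries and 13 above 0 in all 6. Among those above 0 in all, LOC102176955 (283 nt) was the highest, at 281 to 380 FPKM, followed by LOC106504012 (225 nt, 68.1 to 512 FPKM) and LOC106503969 (242 nt, 161 to 268 FPKM). No member belonged to the lists of G protein gamma subunits, thymosins and metallothioneins, host defence peptides, keratin-associated proteins, chemokines, histones, spermatid nuclear proteins or olfactory, vomeronasal and taste receptors. In that order these lists matched 20, 4, 11, 3, 23, 0, 1 and 16 coding rows of the whole table. The histone list could thus match no member, and the absence of the others says little about short transcripts.

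Only 6 members shared their gene with another transcript of the table, and a direct comparison with a longer form was possible for 4 of them. MED21, a subunit of the Mediator complex, was at 0 in all libraries for its 272 nt transcript and at 82.8 to 107 FPKM for its transcript of 788 nt. MRPL52, a protein of the mitochondrial ribosome, was at 0 for its 300 nt transcript, while its 802 nt transcript was at 20.1 to 22.8 FPKM. ETV2, an ETS transcription factor, was at 0 for the 261 nt form and at 0.375 to 1.08 FPKM for the 798 nt form. Only for gene 102180328 was the short form the higher one, with 1.92 FPKM in pubertal replicate 1 and 2.23 FPKM in prepubertal replicate 3 for 298 nt against 0.0244 and 0.00904 FPKM for a form only 3 nt longer. At 300 nt 1 fragment was worth 0.941 and 0.725 FPKM in these libraries, so the values rested on few fragments. Both forms were at 0 in the other libraries. Both transcripts of LOC106502046, a pseudogene with members of 180 and 183 nt, were at 0.

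Spread within a stage was larger for the members than for longer transcripts. Over the 156 members averaging 0.1 FPKM or more, which are all members not at 0 throughout, the median SD of log2(FPKM + 1) was 0.551 in the pubertal and 0.402 in the prepubertal libraries. It was 0.305 and 0.217 at over 300 and up to 500 nt (515 transcripts), 0.225 and 0.168 at over 500 and up to 1000 nt, and 0.189 and 0.140 over 1000 nt. Without pubertal replicate 1 the pubertal value of the members was 0.343. The order of the members against longer transcripts was the same at like levels of FPKM. Such levels do not match in fragments, because 1 fragment was worth far more FPKM on a short transcript. How much of the difference in spread was counting error was not tested. Among transcripts over 100 FPKM the members (46) had a median SD of 0.492 and 0.307, against 0.230 and 0.115 for the 103 transcripts of over 300 and up to 500 nt and 0.156 and 0.0783 for the 508 over 1000 nt.

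**Figure D5:**
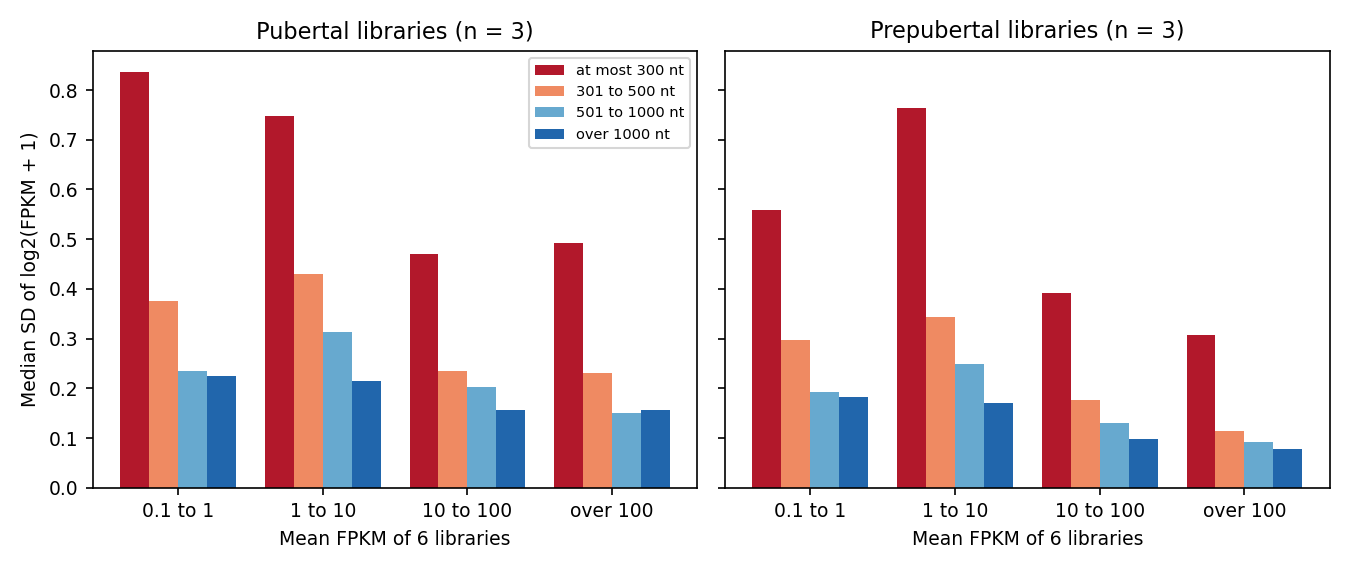
Median SD of log2(FPKM + 1) over the 3 libraries of a stage, by length class and by mean FPKM, for coding transcripts that reached 0.1 FPKM on average. The bins match FPKM and not fragments. In each bin of FPKM and in both stages the bar of the members (at most 300 nt) is the highest, for example 0.492 against 0.156 for transcripts over 1000 nt in pubertal libraries over 100 FPKM.

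Individual libraries carried part of this spread. Of the 46 members that averaged 100 FPKM or more, 40 were highest of the pubertal libraries in replicate 1, and 32 were lowest in replicate 2. Pubertal replicate 1 lay a median of 0.50 above and replicate 2 a median of 0.45 below the members' own means on the log2 scale. For the other 887 rows at that level the same medians were 0.07 and -0.08. The worth of a fragment moved the same way, at 25.3 and 9.24 FPKM for 200 nt in these 2 libraries. In fragments the order was different. Among the 63 members of 200 to 300 nt with at least 10 fragments in all libraries, pubertal replicate 1 was the highest pubertal library for 45 in FPKM but for 7 in fragments as a share of the library, and the median ratio of replicate 1 to replicate 2 was 1.54 in FPKM and 0.704 in that share. The median coefficient of variation of these 63 members was 28.0% in FPKM and 25.0% in the share of fragments in the pubertal libraries, and 21.0% and 20.4% in the prepubertal libraries.

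In 13 members a library at 0 stood beside one at 10 FPKM or more of the same stage, and 6 of these were under 200 nt. The highest was LOC106503831 (154 nt, XM_013976545.1). Prepubertal replicate 1 listed it at 3453 FPKM and replicate 2 at 2657 FPKM, while prepubertal replicate 3 and all pubertal libraries were at 0. Its 2 values above 0 stood for at most 5.44 and 5.46 fragments. MBP, myelin basic protein of the oligodendrocyte sheath (162 nt, XM_013974236.1), was at 3333, 489 and 2415 FPKM in the pubertal and 0, 425 and 874 FPKM in the prepubertal libraries. In FPKM its stages overlapped. These values were at most 6.75, 4.36 and 8.82 against 0, 1.82 and 3.44 fragments. Such upper estimates did not overlap, but the bound differs by library, so they give no order of the libraries.

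C6H4orf48 (164 nt, XM_013964863.1) was at 363 FPKM in pubertal replicate 2, from at most 3.78 fragments, and at 0 in the other 5 libraries. IL17D, a cytokine of the interleukin 17 family (182 nt), was at 271, 0 and 56.4 FPKM in the pubertal and 251, 98.1 and 99.5 FPKM in the prepubertal libraries, from at most 4.18 fragments. LSMEM2 (212 nt) reached 55.7 FPKM in pubertal replicate 3 from 6 fragments and was at 0 in pubertal replicate 2, and LOC106501861 (201 nt) was at 14.0 FPKM in prepubertal replicate 2 alone, from 1 fragment. Gene 106501918 (188 nt) was at 56.5, 0 and 0 FPKM in the pubertal and 39.9, 126 and 63.5 FPKM in the prepubertal libraries, from at most 4.05 fragments. Most of these jumps thus rested on a few fragments. TSSK1B, a testis-specific kinase (234 nt), was at 0 in prepubertal replicate 2 and at 11.6 to 16.3 FPKM, 3 to 5 fragments, in the other libraries. Gene 102171600 (278 nt, XM_005702101.2) was the exception in depth, at 72.2 FPKM from 55 fragments in pubertal replicate 3 and at 0 in the other 5 libraries.

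Between the stages no member passed an adjusted p-value of 0.05 in limma (Benjamini-Hochberg over 23821 rows averaging 0.1 FPKM or more), and neither did any other row (0%). In tissue RNA, fewer cells of a type and less RNA per cell cannot be told apart. At an unadjusted p-value under 0.05 were 22 of the 156 members tested (14.1%), 11 higher and 11 lower in pubertal goats, against 4.87% of all rows tested (2.87% higher and 2% lower) and 9.13% of the transcripts of over 300 and up to 500 nt. The median difference of the members was -0.01 on the log2 scale, against -0.00 over all rows. The count depended on the scale of the values. A further scale, log2(fragments + 1), called the fragment scale, was chosen after the data were seen. Here FPKM was multiplied by 1 factor per length, the fragments behind 1 FPKM averaged over the libraries. This gave a transcript about the weight of its fragments but kept the ratios between libraries as in FPKM. It was therefore not a test on the fragments of each library. On this scale 2 of 156 members (1.28%) passed the unadjusted p-value, against 4.53% of all rows. Only 1 member, LOC102184901, passed on both scales. The other on the fragment scale was ATP5I.

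Stages did not overlap in 17 of 156 members (10.9%), 10 higher and 7 lower in pubertal goats, against 9.56% of all rows. This share was near that of the table. When each library was scaled to the same summed FPKM, NKD2 included, 44 members (28.2%) passed the unadjusted p-value, 30 of them higher in pubertal goats, against 4.21% of all rows. With this scaling 4 of 156 members passed the adjusted p-value, against 83 of 23821 rows (0.348%). They were MBP, LOC106503831, FAM110C and gene 106501918, all under 200 nt. That scaling moved log2 FPKM by 0.12 on average, pubertal minus prepubertal, and single libraries by -0.48 to 0.35. The differences of these 4 members hardly moved, and 3 of the 4 were lower in pubertal goats. Their SE fell, from 2.40 to 0.89 for MBP, from 2.88 to 1.05 for LOC106503831, from 1.11 to 0.53 for FAM110C and from 1.50 to 0.62 for gene 106501918. Without pubertal replicate 1, 36 of 155 members (23.2%) passed the unadjusted p-value and 9 of them were higher in pubertal goats, against 10.5% of all rows. Members whose stages did not overlap numbered 43 of 155 without pubertal replicate 1, against 28.8% of all rows. Without pubertal replicate 2 they numbered 33 of 154, against 20.9%. They numbered 28 of 156 without prepubertal replicate 1, against 16.2% of all rows, and 27 of 153 without prepubertal replicate 2, against 18.8%. Each case had 1 library fewer to overlap, and these shares too were near those of the table.

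Members with the largest differences among those past the unadjusted p-value with no overlap rested on modest fragment numbers. Of the higher ones, LOC102184901 (269 nt, XM_013977218.1) had the most, with 80.1, 69.2 and 84.4 FPKM in the pubertal and 34.2, 27.6 and 56.7 FPKM in the prepubertal libraries, from 21 to 69 fragments. Its log2 difference was 1.02 (SE 0.24, adjusted p = 0.825, limma), and on the fragment scale the difference was 1.01 and was also past the unadjusted threshold. Gene 106503609 (232 nt, XM_013974924.1) had the lowest p-value of the members, with 64.3, 54.5 and 50.2 FPKM in the pubertal and 30.4, 32.3 and 31.5 FPKM in the prepubertal libraries. Its log2 difference was 0.82 (SE 0.10, adjusted p = 0.397, limma).

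The fragments behind gene 106503609 were 12, 22 and 12 in the pubertal and 7, 9 and 9 in the prepubertal libraries. Gene 106504044 (291 nt) differed by 0.92 from 6, 11 and 5 against 4, 2 and 4 fragments, and gene 106502239 (260 nt) by 1.28 from 5, 5 and 6 against 3, 1 and 2 fragments. EPS8L2, an actin-regulating adaptor (287 nt, XM_013976108.1), differed by 1.36 from 4, 3 and 4 against 1, 2 and 0 fragments. The 5 members with the largest higher values thus included 2 with no library above 6 fragments.

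Of the lower ones, NR2F6, an orphan nuclear receptor (208 nt, XM_013965017.1), was at 288, 218 and 202 FPKM in the pubertal and 302, 485 and 386 FPKM in the prepubertal libraries. Its log2 difference was -0.71 (SE 0.20, adjusted p = 0.944, limma), and its 18, 35 and 18 pubertal fragments overlapped with the 25, 50 and 40 prepubertal ones. GUCD1 (256 nt) differed by -0.74 from 4, 5 and 4 against 8, 8 and 7 fragments, and gene 106503065 (274 nt) by -1.29 from 4, 1 and 4 against 6, 11 and 8. None of these 3 passed the adjusted p-value.

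FAM110C (187 nt, XM_013966326.1) had the largest difference of the members named here for their change, -3.76 (SE 1.11, adjusted p = 0.945, limma). It was at 0, 20.4 and 0 FPKM in the pubertal and 42.9, 33.7 and 34.1 FPKM in the prepubertal libraries. At this length 1 fragment was worth an estimated 19.4 FPKM in pubertal replicate 2 and 42.2, 33.2 and 34.1 FPKM in prepubertal replicates 1, 2 and 3, so each value above 0 lay at about 1 fragment. Without pubertal replicate 2 the adjusted limma p-value of FAM110C became 0.000806. LOC106503831, with at most 5.46 fragments in any library, reached an adjusted limma p-value of 1.76e-06 without prepubertal replicate 3. These 2 were the members that passed the adjusted p-value when 1 library was left out.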

How the data were processed

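RNA from 6 goats was analysed, 1 library per goat, 3 per stage. The authors aligned reads with TopHat, assembled transcripts with Cufflinks and deposited tables of FPKM for each mRNA and lncRNA transcript in each library. The submitters' processing notes name Cufflinks 2.1.1 and Cuffdiff 2.1.1, and the genome build is not given in the sources used here. Lengths and gene identifiers came from the deposited comparison table. Its means, fold changes, p-values and q-values of the authors' own comparison were not used, and 0 per-sample columns were left unused.

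Stages were compared on log2(FPKM + 1) with a two-sided moderated test, limma 3.58.1 under R 4.3.3 with a mean-variance trend, fitted to all rows of the mRNA table averaging 0.1 FPKM or more. Adjustment was by Benjamini-Hochberg with a threshold of 0.05. Differences on this scale understate the change of low transcripts. The fit was tested on simulated data. Shares, zeros, spread and fragments were computed in Python 3.11.15 with numpy 2.4.6 and pandas 2.3.3 and drawn with matplotlib 3.10.9. Fragments were found as whole-number steps in the FPKM values at most lengths from 200 nt up, and the worth of 1 was predicted at the others. With no count table, no count model was fitted, and fragment numbers cover counting error only.

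Gene names were looked up in RefSeq for the ARS1.2 assembly, which served for names only. Named were NKD2, the 10 members with the highest mean, the 5 shortest members with a mean of at least 0.1 FPKM, the members of largest change, up to 5 each way, with an unadjusted p under 0.05 and no overlap, up to 10 at 0 in 1 library and at 10 FPKM or more in another of the same stage, up to 5 of genes with another transcript, and up to 4 of each gene group. TH, NPPC, PRLH and ETV2 are named beyond the rule, with their values already known. The members and lists were chosen with earlier results of these data known. Alternatives were another pseudocount, minimum, scaling, length limit or trend, the replicate number as a block, and leaving out each library. Transcript sequences and proteins of the members were not analysed here. Of the members, 1 that this rule names is withheld and is not reported here.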

Additional observations from a re-analysis of the deposited data

How the results depend on the processing

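The share of FPKM, the share of zeros, the spread and the stage counts were recomputed under the alternatives. The share of summed FPKM, on average 44.6% over the 6 libraries, was 9.31% without NKD2, 2.51% for members of at least 200 nt and at most 0.0786% as fragments, the latter 2 added after the data were seen. The percent of members at 0, 45.2% on average, was 49.9% up to 250 nt, 42.4% up to 400 nt and 12.8% among members above 0 in at least 1 library. Of 156 members tested, 22 (14.1%) passed the unadjusted p-value, against 4.87% of all rows. With no minimum 14 (8.97%) passed, against 4.81% of all rows. With libraries scaled to the same sum 44 (28.2%) passed, against 4.21%, and on the fragment scale 2 (1.28%), against 4.53%. Up to 250 nt 10 of 74 passed, and up to 400 nt 42 of 361. With a library left out the count ran from 17 (11.0%, against 4.17% of all rows) to 36 (23.2%, against 10.5%). The count of members past the adjusted p-value was 0, as over all rows, but 4 of 156 with the same sum, against 83 of 23821 rows (0.348%). With a library left out 0 to 1 member passed it, and also 0 to 1 of all rows. Stages that did not overlap, in 17 of 156 members (10.9%) against 9.56% of all rows, numbered 23 to 43 with a library left out. Over all rows the share was then 16.2% to 28.8% for the left-out libraries given above. The pubertal SD of 0.551 was 0.343 to 0.544 with a pubertal library left out. The NKD2 difference ran from -0.66 to 0.41 with a library left out and was 0 with quantile normalization. The differences of the other members named for their change, and of MBP, kept their sign under the alternatives, and 3 of their values passed the adjusted p-value where the reported ones did not.

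Same-numbered libraries came from different goats and did not deviate together (correlations of -0.00, -0.03 and 0.04), so the number does not pair them. With the replicate block 33 of 156 members (21.2%) passed the unadjusted p-value, against 4.83% of all rows, and 0 the adjusted one. The NKD2 difference was then -0.13.

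Fragment numbers under 200 nt are upper estimates, and sequences of the members were not at hand to ask which part of a gene each covers. A p-value that misses the threshold does not show that the stages were alike, and whether depth set the number of calls was not tested.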
